A study of Mus musculus with 6 samples.

Results

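Untreated PA6 cells, the stromal layer on which embryonic stem (ES) cells are differentiated in the ES/PA6 co-culture, were examined for the genes they express before any growth factor is added. The members are the genes detected on both arrays of pure PA6 cultures kept for 3 h in serum-free medium without growth factors (-GFs). A gene was counted when at least 1 of its probes had a detection p-value under 0.05 on both arrays. By this rule 10715 of the 30854 gene names on the array (34.7%) were members, 2189 (7.09%) were detected on 1 array and 17950 (58.2%) on neither. The series holds 6 Illumina MouseWG-6 v2.0 BeadChip arrays of PA6 monolayers grown to confluence, with 2 biological replicates each of -GFs medium, 20 ng/ml of FGF2 and 10 ng/ml of BMP4 for 3 h. The protocol in the labels gives each biological replicate wells of all 3 conditions. Only the 2 -GFs arrays enter the values below, unless treated arrays are named, and the treatments are not compared. PA6 is a single established line, so the arrays describe that line and not the bone marrow stroma of an animal.

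PA6 is a stromal line with preadipocyte properties that was derived from newborn mouse calvaria. Stromal cells of this kind lay down extracellular matrix, secrete cytokines and growth factors, and are grown as feeder layers because they sustain haematopoietic cells and promote neural differentiation of ES cells. Which matrix proteins, secreted signals and receptors the unstimulated layer transcribes, and which lineage genes it does not, is the question addressed here.

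Each value below is the log2 of the probe intensity after normalization of both -GFs arrays to each other, given for replicate 1 and then for replicate 2, and a gene with several probes is represented by its brightest detected probe. Probe intensity depends on the probe as well as on the transcript, so a rank is a rank of signal and 1 gene's value is not set against another's. The lowest detected signal was 7.58 on replicate 1 and 7.64 on replicate 2, and the highest signal was 16.05 and 16.13. The median over the members was 9.61, with quartiles at 8.40 and 11.09, and the median over all gene names was 7.37. Over the members the arrays correlated with r = 0.974 across genes, which are not independent replicates, and the median SD between them was 0.17. With 2 arrays of 1 group no test was made, and the difference between the arrays is the only measure of error. HSD17B14, at 7.76 and 7.64, lay just inside the detection threshold, and RIMS3, at 7.59 and 7.64, just outside it.

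An undetected probe does not show that a transcript is absent. Of the 63 cytosolic ribosomal proteins on the array, which every cell uses, 56 were detected on both arrays and 7 (RPL6, RPS18, RPSA, RPL14, RPL17, RPS23 and RPS20) on neither. Members close to the threshold are weak evidence as well, since 1450 members (13.5%) had a mean below 8.

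Ribosomal proteins and predicted loci took most of the brightest end of the ranking. Of the 30 genes with the highest mean, 11 were ribosomal proteins, 13 were predicted loci without a gene name, 1 was a mitochondrial transcript and 5 were other genes. Predicted loci can share sequence with ribosomal protein genes and their copies, so their signals are uncertain. The 5 other genes were the ubiquitin gene UBB, the elongation factor EEF1A1, the ferritin heavy chain FTH1, the prolyl isomerase PPIA and IGFBP4. IGFBP4, a secreted protein that binds insulin-like growth factors, gave 16.01 and 15.99 and ranked 9 of 10715. Signals flatten close to the top of the scale, where 144 genes had a mean above 15, so the order within this range carries little information. Outside the gene lists and chosen after its values were seen, DLK1, the transmembrane and shed protein known as preadipocyte factor, gave 15.90 and 15.82 and ranked 37.

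**Figure D1:**
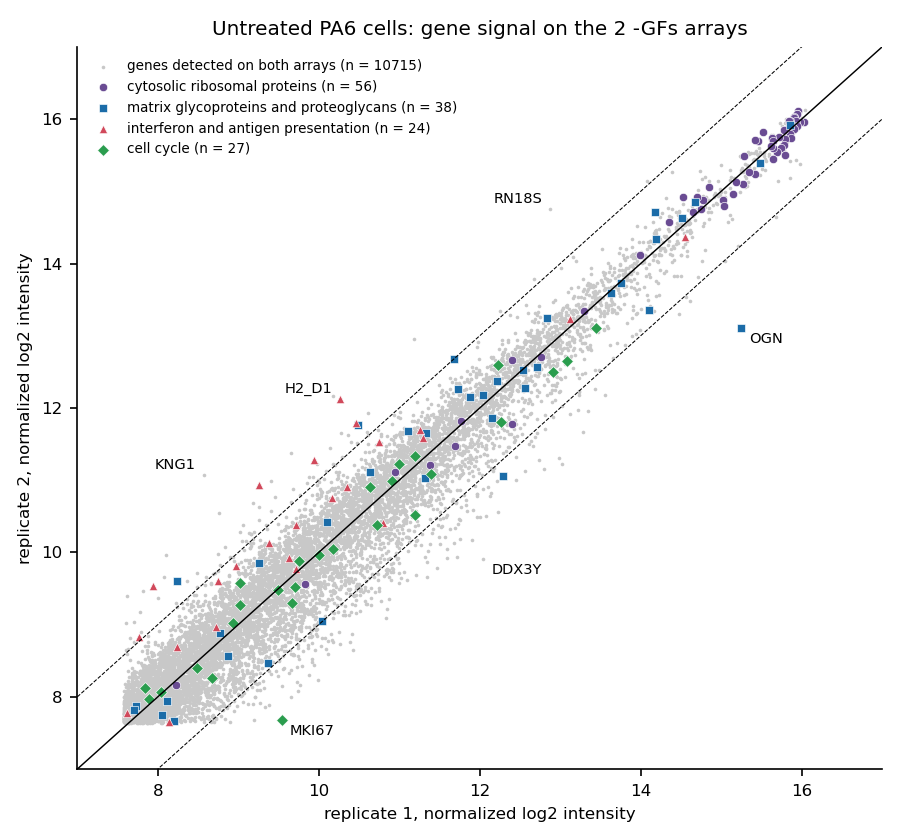
Normalized log2 intensity of the 10715 genes detected on both -GFs arrays, replicate 1 on the horizontal and replicate 2 on the vertical axis, with 4 gene lists coloured. The solid line marks equal values and the dashed lines a difference of 1 on the log2 scale, within which 97.0% of the genes lie. Ribosomal proteins sit mostly at the bright end, and many triangles (interferon and antigen presentation) lie above the solid line.

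The promoters of the detected genes had letters in common that the detection rule did not use. RefSeq promoter windows of GRCm38.p6, reaching from 250 bases before to 50 bases after a transcript start, were found for 7055 of the detected genes (9044 windows) and for 7519 of the genes detected on neither array (8816 windows). The sequence GGGCGG, or CCGCCC on the other strand, the core of a GC box, was present in 63.7% of the windows of detected genes and in 34.8% of those of undetected genes, against 35.7% of all 32851 windows. The median number of CG dinucleotides per window was 21 for detected genes, 6 for undetected genes and 7 over all windows. TATAAA on the coding strand, starting 20 to 40 bases before the start, was present in 1.19% of the windows of detected genes, 3.72% of those of undetected genes and 1.99% of all windows. CCAAT, or ATTGG on the other strand, was equally common in detected (37.6%) and undetected genes (37.6%) and was in 37.4% of all windows. All 32851 windows also hold those of genes in no detection class, so their values are not a background of the array's genes alone. Genes detected on 1 array had GGGCGG on either strand in 49.9% of 1291 windows. These are shares of windows, of which a gene can have several, and a match of letters is not a binding site.

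The 100 bases before the start are shown for 5 genes, chosen after their values were seen, to set a TATA-type, a GC-box and a CCAAT promoter side by side. Igfbp4 (chr11:99041144-99041243, + strand) and Vim (chr2:13574211-13574310, + strand) have TATAAA in capitals. Cxcl12 (chr6:117168435-117168534, + strand) and Gas6 (chr8:13494536-13494635, - strand) have each GGGCGG or CCGCCC in capitals, which occurs 4 times in both. Adipoq (chr16:23146436-23146535, + strand), whose transcript was seen on 1 array only, has 3 CCAAT or ATTGG in capitals and 0 CG dinucleotides in the stretch shown. The sequences run 5′ to 3′ on the strand of the gene.
Igfbp4: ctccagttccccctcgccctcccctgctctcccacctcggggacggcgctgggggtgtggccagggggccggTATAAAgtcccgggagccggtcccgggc
Vim: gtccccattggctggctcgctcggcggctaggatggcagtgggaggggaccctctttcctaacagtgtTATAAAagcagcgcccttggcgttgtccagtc
Cxcl12: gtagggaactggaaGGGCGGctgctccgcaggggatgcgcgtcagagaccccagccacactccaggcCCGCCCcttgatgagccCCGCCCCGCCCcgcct
Gas6: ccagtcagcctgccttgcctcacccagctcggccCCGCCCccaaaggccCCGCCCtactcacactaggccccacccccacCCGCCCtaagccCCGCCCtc
Adipoq: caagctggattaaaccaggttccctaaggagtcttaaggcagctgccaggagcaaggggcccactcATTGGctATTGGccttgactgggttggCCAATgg

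The stromal label was set beside its markers. The markers were chosen with earlier results of these data known, so their counts are not an independent check of the label. All 8 defining markers (VIM, THY1, PDGFRA, PDGFRB, COL1A1, COL1A2, PRRX1 and TWIST1) were detected on both arrays, and of a longer list of stromal identity genes 24 of 30 (80.0%) were, against 34.7% of all genes. VIM, the intermediate filament of mesenchymal cells, gave 14.75 and 14.80. THY1, a surface glycoprotein of fibroblasts, gave 13.38 and 13.12. PDGFRA, the receptor that marks mesenchymal progenitors, gave 12.75 and 12.82. On each of these genes the values of the arrays lay close together. LY6A (Sca-1), a surface antigen of mouse mesenchymal progenitors, gave 15.09 and 14.57, and VCAM1, an adhesion molecule of marrow stroma, gave 12.46 and 12.70. PRRX1, a transcription factor of limb and craniofacial mesenchyme, gave 9.87 and 9.83. LEPR, the leptin receptor of perisinusoidal marrow stroma, CDH11, NT5E, ALCAM and TCF21 were detected on neither array, and NGFR was detected on 1.

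The lists below were compared with the whole array by their share of detected genes. List members can only be names matched to a RefSeq symbol or synonym, of which 9171 of 21840 were detected on both arrays. This share is higher than the 34.7% of all names. A list share slightly above 34.7% is therefore not read as an excess. Of the 1021 distinct list genes on the array, 501 (49.1%) were detected on both arrays. The largest shares were those of reference genes (90.9%), ribosomal proteins (88.9%), collagen processing (85.7%), cell cycle (81.8%) and collagens (81.0%). The smallest were those of neural and glial genes (0.0%), trunk and limb position factors (12.5%), mesendoderm and endoderm genes (15.8%) and skeletal and cardiac muscle genes (16.7%).

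**Figure D2:**
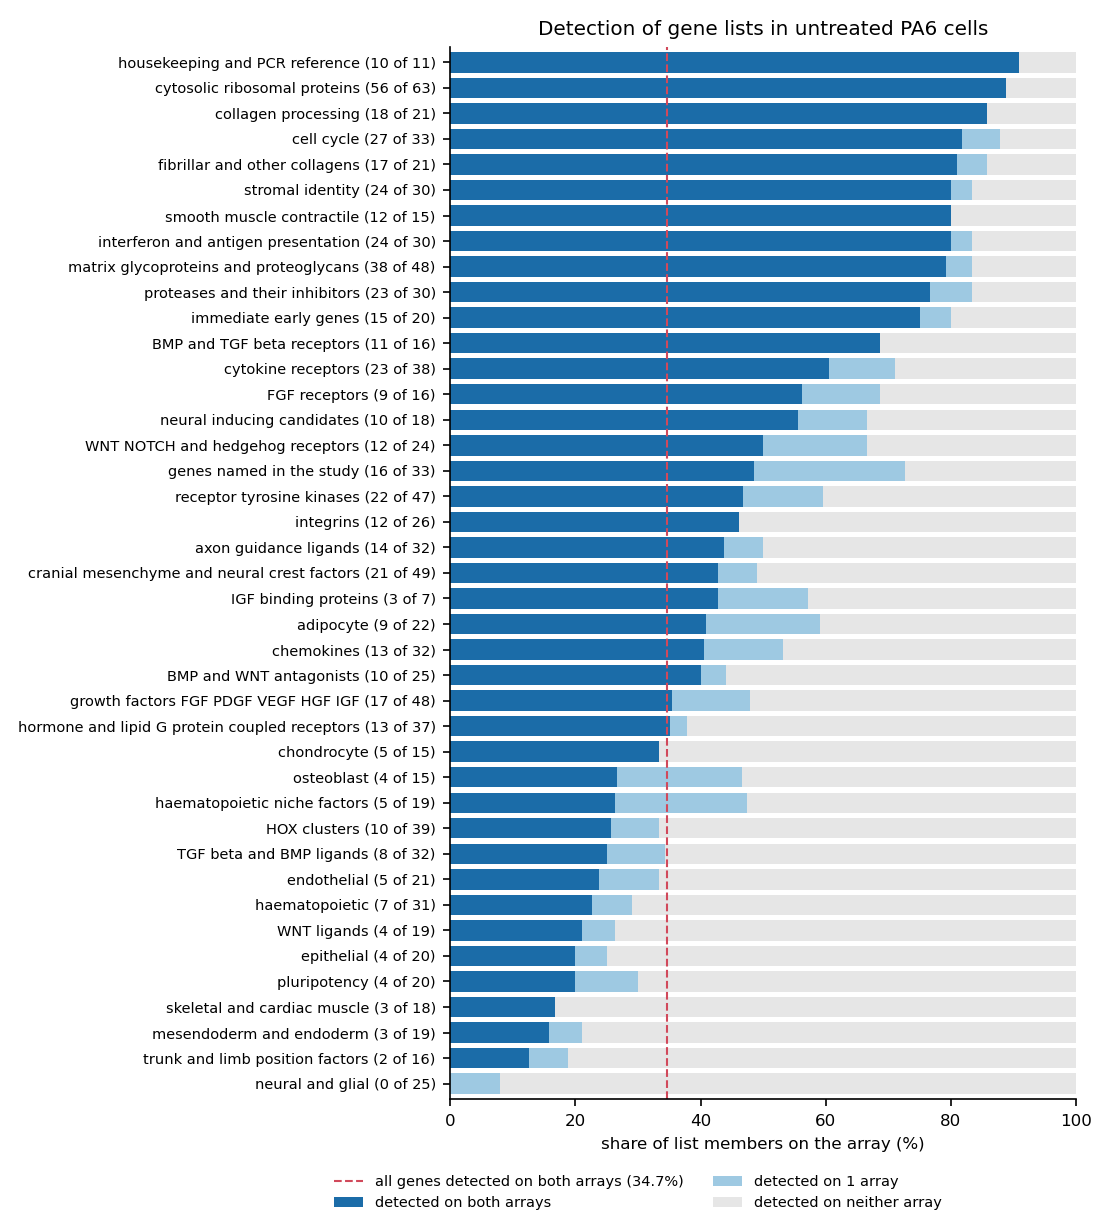
Share of the members on the array, in percent, of 41 gene lists that were detected on both -GFs arrays (dark), on 1 (light) or on neither (grey). The dashed line marks the share of all 30854 genes detected on both arrays, 34.7%. Matrix, collagen and stromal lists lie far to the right of the line, and the neural, skeletal and cardiac muscle, and endoderm lists to the left of it.

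Among the secreted products, most genes of the extracellular matrix were detected. Of the collagens 17 of 21 were detected, of the enzymes and chaperones that process collagen 18 of 21, and of matrix glycoproteins and proteoglycans 38 of 48. COL6A1, a chain of the pericellular type VI collagen, gave 15.26 and 15.33, and COL5A1, which nucleates fibrils, gave 14.15 and 14.58. COL1A1, the main chain of fibrillar type I collagen, gave 13.55 and 13.67, and COL3A1 gave 10.77 and 11.61. Of the detected collagens, 15 of 17 read brighter on replicate 2, with a median difference of 0.51. Over all members the median difference, replicate 2 minus replicate 1, was 0.05. This median is positive, so most members read brighter on replicate 2, and the count of 15 is not read alone as an excess. By more than 1, 2 of the 17 collagens read brighter on replicate 2, against 0.737% of all members. COL7A1, COL8A2 and COL14A1 were detected on neither array.

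The small proteoglycans that bind collagen and TGFβ were among the brightest secreted products. BGN (biglycan) gave 15.86 and 15.92 and ranked 31, and DCN (decorin) gave 15.48 and 15.40 and ranked 98. OGN (osteoglycin) gave 15.25 and 13.10, one of the largest differences between the arrays. SPARC, a collagen-binding glycoprotein, gave 14.17 and 14.72, and FN1 (fibronectin) gave 14.19 and 14.34. POSTN (periostin), a matrix protein of periosteum and tendon, was detected on neither array, as were FBN2, FBLN5 and DPT.

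The machinery that folds and cross-links collagen was present from chaperone to lysyl oxidase. SERPINH1, the collagen chaperone of the endoplasmic reticulum, gave 15.34 and 15.55. P4HB, the β subunit of prolyl 4-hydroxylase, gave 15.34 and 15.32. LOXL1 and LOX, which cross-link elastin and collagen, gave 14.19 and 14.46 and 14.00 and 13.09. LOXL2, LOXL3 and PCOLCE2 were detected on neither array.

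Of the proteases and their inhibitors 23 of 30 were detected. SERPINF1 (pigment epithelium-derived factor), an anti-angiogenic serpin, gave 15.73 and 15.95. MMP2 (gelatinase A) gave 15.34 and 15.34, and MMP14, the membrane protease that activates it, gave 14.12 and 14.32. The inhibitors TIMP1, TIMP2 and TIMP3 were detected, with TIMP2 at 14.84 and 14.71. MMP3, MMP10, MMP19 and MMP23 were detected on neither array.

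Of 48 growth factors of the FGF, PDGF, VEGF, HGF, IGF and related families 17 were detected (35.4%). This share is close to that of all names and below that of the matched names (9171 of 21840). GAS6, the ligand of the TAM receptor kinases, gave 15.76 and 15.91 and ranked 43. IGF2, a fetal growth factor, gave 14.80 and 15.20, and FIGF (VEGF-D), a lymphangiogenic factor, gave 14.21 and 13.73. VEGFA gave 10.85 and 10.80. Among the FGFs, FGF7 (11.91 and 10.17) and FGF10 (10.49 and 11.09), both mesenchymal ligands of epithelial FGFR2, were detected, and FGF7 differed between the arrays by more than 1. FGF2 itself was detected on neither array, and FGF1, FGF13 and FGF18 on 1. HGF, a ligand of mesenchymal origin, gave 11.48 and 10.37, and BDNF, a neurotrophin, gave 9.76 and 8.17.

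Of 7 IGF binding proteins 3 were detected, IGFBP4, IGFBP7 (14.45 and 14.40) and IGFBP6 (11.79 and 11.40). IGFBP5 was detected on 1 array, and IGFBP1, IGFBP2 and IGFBP3 on neither.

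Among TGFβ and BMP ligands 8 of 32 were detected (25.0%), fewer in share than all genes. TGFB1, the ligand central to the study, gave 9.73 and 9.95, TGFB3 gave 10.22 and 9.76, and TGFB2 gave 8.38 and 8.14. BMP1 gave 13.59 and 13.40 but is a procollagen protease in spite of its name. BMP4 was detected on replicate 1 only, at 8.56 and 7.64, and BMP2, BMP6 and BMP7 were detected on neither array. GDF1 was detected at 8.83 and 9.57 and shares a transcript with a neighbouring gene, so its signal is uncertain.

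Antagonists of BMP and WNT signaling were detected in 10 of 25 cases (40.0%). SFRP1, a secreted WNT antagonist, gave 15.30 and 15.07 and ranked 130. The BMP and activin antagonists FST (10.02 and 10.33) and CHRD (9.85 and 10.07) were detected, and FSTL1, a secreted follistatin-like glycoprotein, gave 13.36 and 13.01. NOG, CER1, DKK1, DKK2 and WIF1 were detected on neither array. GREM1 was detected on replicate 1 only.

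WNT ligands were detected in 4 of 19 cases (21.1%). WNT5A, a ligand of non-canonical signaling, gave 10.31 and 10.36, and WNT5B gave 9.76 and 9.76. WNT10B (8.23 and 7.77) and WNT6 (7.70 and 7.71) passed the threshold narrowly, and both were lost at a detection p-value under 0.01. WNT3 was detected on 1 array, and WNT1, WNT3A, WNT4 and WNT10A on neither.

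Secreted or membrane-bound factors that are candidates for the neural inducing activity of stromal layers were detected in 10 of 18 cases (55.6%). Besides IGFBP4, SFRP1, IGF2 and CXCL12, PTN (pleiotrophin), a heparin-binding growth factor, gave 15.21 and 14.24. EFNB1, a membrane-bound ephrin, gave 13.16 and 12.81. MDK (midkine), the relative of pleiotrophin, was detected on replicate 2 only (7.23 and 7.71). FGF8, SHH and WNT1 were detected on neither array.

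**Figure D3:**
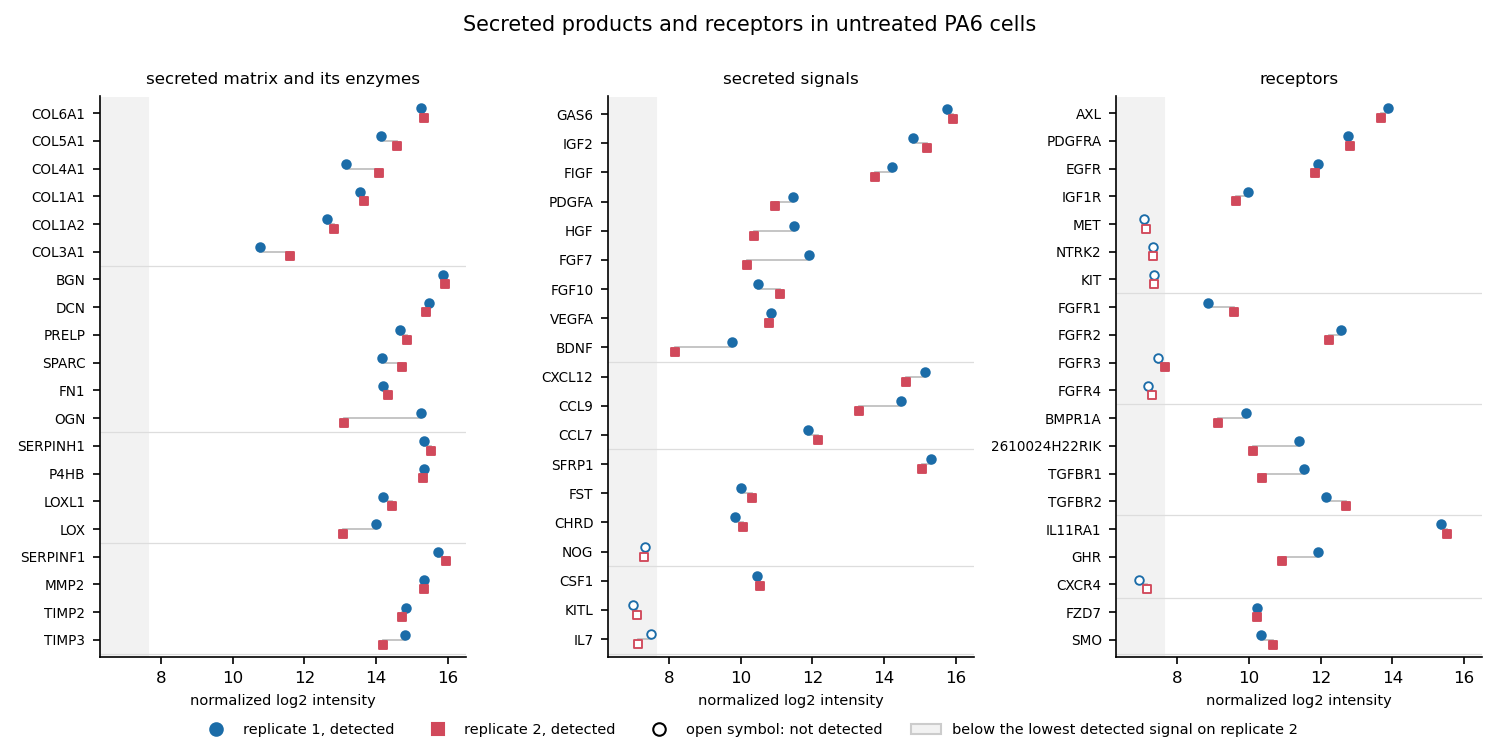
Normalized log2 intensity on replicate 1 (circles) and replicate 2 (squares) of secreted matrix and enzyme genes, secreted signals and receptors, named as on the array (2610024H22RIK is BMPR2). Filled symbols are detected at p under 0.05, open ones are not, and the shaded band lies below 7.64, the lowest detected signal on replicate 2. The receptors MET, NTRK2, KIT and CXCR4 lie in the band, while HGF, BDNF and CXCL12 lie clear of it.

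Chemokines were represented by CXCL12 (SDF-1), the chemokine that retains haematopoietic progenitors in marrow, which gave 15.14 and 14.62 and ranked 163. Of 32 chemokines 13 were detected (40.6%). CCL9 gave 14.47 and 13.30, CCL7 gave 11.87 and 12.14, and CX3CL1 gave 11.36 and 12.00. Of the 13 detected chemokines 4 read brighter on replicate 2 by more than 1 and 1 on replicate 1. Over all members the shares were 0.737% and 2.28%. CXCL2, CXCL9, CXCL13, CCL3 and CCL4 were detected on neither array.

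Of 19 factors known to maintain haematopoietic cells 5 (26.3%) were detected, CXCL12, VCAM1, CSF1, IL15 and TNFSF11. CSF1 (macrophage colony-stimulating factor) gave 10.46 and 10.53. KITL (stem cell factor), IL7, IL6, ANGPT1, CSF3 and LIF were detected on neither array, and FLT3L, IL11 and IL34 on 1. TNFSF11 (RANKL), at 7.60 and 7.74, did not pass the threshold of 0.01.

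Axon guidance ligands were detected in 14 of 32 cases (43.8%). Besides EFNB1, SLIT2, a repellent of commissural axons, gave 11.55 and 11.32, and SEMA3F gave 11.78 and 11.67. SEMA3A gave 9.74 and 8.72. SEMA7A, SEMA3C, EFNB2 and SLIT1 were detected on neither array.

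Receptors for the growth factors used in the study were detected in the untreated cells. Among FGF receptors and their proteoglycan co-receptors 9 of 16 were detected (56.2%). FGFR2 gave 12.55 and 12.24 and FGFR1 gave 8.86 and 9.60, FGFR3 was detected on 1 array and FGFR4 on neither. FGFR2 was detected on both arrays by 2 of 4 probes and FGFR1 by 1 of 2. The co-receptor proteoglycans GPC1 (12.69 and 12.69) and SDC2 (12.64 and 12.22) were detected. The KL and KLB co-receptors of endocrine FGFs were detected on neither array.

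Of the receptors of BMP and TGFβ ligands 11 of 16 were detected (68.8%). TGFBR2 gave 12.15 and 12.70, TGFBR1 gave 11.53 and 10.36, and TGFBR3 (betaglycan) gave 11.77 and 11.57. The type I BMP receptors ACVR1 (10.24 and 10.29) and BMPR1A (9.93 and 9.13) were detected, and BMPR1B was detected on neither array. BMPR2, matched by a synonym to the clone name 2610024H22RIK, gave 11.38 and 10.11, a match that could not be checked against the probe sequence. TGFBR1 and BMPR2 differed between the arrays by more than 1. Each was detected on both arrays by 1 of 4 probes, and TGFBR2 by 2 of 4.

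Of 47 receptor tyrosine kinases 22 were detected (46.8%). AXL, a receptor of GAS6, gave 13.88 and 13.68, and EGFR gave 11.93 and 11.84. PDGFRB gave 10.31 and 10.09, and IGF1R gave 9.97 and 9.64. MET, KIT, RET, FLT3, NTRK2, NTRK3, ERBB3, ERBB4 and TIE1 were detected on neither array. FLT1 (VEGFR1) was detected at 10.50 and 10.99, while KDR (VEGFR2) and FLT4 (VEGFR3) were detected on 1 array each.

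Cytokine receptors were detected in 23 of 38 cases (60.5%). IL11RA1, the binding subunit of the interleukin 11 receptor, gave 15.37 and 15.53 and ranked 95. Its signaling subunit IL6ST (gp130) gave 9.31 and 9.74, and the related OSMR gave 10.35 and 10.23. GHR, the growth hormone receptor, gave 11.94 and 10.92, a difference of more than 1. CXCR4, CSF2RB, IL2RG and CCR2 were detected on neither array.

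WNT, NOTCH and hedgehog receptors and NOTCH ligands were detected in 12 of 24 cases (50.0%). FZD7, a WNT receptor, gave 10.21 and 10.23, and its co-receptor LRP5 gave 8.43 and 8.31. NOTCH1 gave 10.08 and 10.34, and SMO, the hedgehog signal transducer, gave 10.32 and 10.67. NOTCH2 and FZD3 were detected on neither array, and LRP6, matched by a synonym to a clone name and likewise unchecked, on 1.

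Integrins were detected in 12 of 26 cases (46.2%). ITGA11, a collagen-binding α chain of fibroblasts, gave 11.72 and 10.87, and ITGA5, the fibronectin-binding α chain, gave 10.09 and 10.64. ITGB1, the common β chain, gave 9.73 and 9.06. Of 37 G protein coupled receptors and their modulators 13 were detected (35.1%). F2R, the thrombin receptor, gave 13.65 and 12.69, and RAMP2, a modifier of the calcitonin receptor-like receptor, gave 12.58 and 13.42. CALCRL itself and PTH1R, the receptor of osteoblastic cells for parathyroid hormone, were detected on neither array.

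For 28 ligand and receptor pairs, chosen after the values were seen, the ligand and a known receptor were looked up together. Because of that choice, the counts do not tell how common such pairs are. In 19 pairs both were detected on both arrays, for example GAS6 with AXL, IGF2 with IGF1R, PDGFA with PDGFRA, FGF7 and FGF10 with FGFR2, WNT5A with ROR2 (9.07 and 9.19) and EFNB1 with EPHB4 (11.49 and 11.62). Of the receptors in these 19 pairs, CSF1R (with CSF1) and TEK (with ANGPT2) were lost at a detection p-value under 0.01. In 4 pairs the ligand was detected and the receptor on neither array, among them HGF with MET, BDNF with NTRK2 and CXCL12 with CXCR4. In 4 further pairs the receptor was detected on 1 array, among them CXCL12 with CXCR7. In the remaining pair, IL11 with IL11RA1, the receptor was detected and the ligand on replicate 1 only. Detection of both transcripts says nothing of signaling.

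Genes of the skeletal lineages were detected in part. Of 15 osteoblast genes 4 were detected (26.7%), ATF4, IFITM5, BGLAP2 and SPP1. RUNX2, the transcription factor required for osteoblasts, and IBSP were detected on neither array, and SP7 (8.02 and 7.63) and ALPL (AKP2 on the array, 7.56 and 7.82) on 1. Of 15 chondrocyte genes 5 were detected (33.3%). SOX9, the chondrogenic transcription factor, gave 14.18 and 14.41, and COL2A1, the cartilage collagen, gave 11.23 and 10.38. ACAN, SOX5, SOX6, COL10A1 and HAPLN1, further genes of the chondrocyte list, were detected on neither array.

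Smooth muscle contractile genes were detected in 12 of 15 cases (80.0%). ACTA2, the α actin of smooth muscle and myofibroblasts, gave 14.96 and 15.15, and TPM1 gave 14.11 and 13.82. TAGLN (SM22), an early marker, gave 7.99 and 8.05, near the detection limit. MYOCD, CNN1 and MYH11, which mark differentiated smooth muscle, were detected on neither array. Of 18 skeletal and cardiac muscle genes 3 were detected (16.7%), TNNC1, TTN and DES, and MYOD1, MYOG and MYF5 were detected on neither array.

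**Figure D4:**
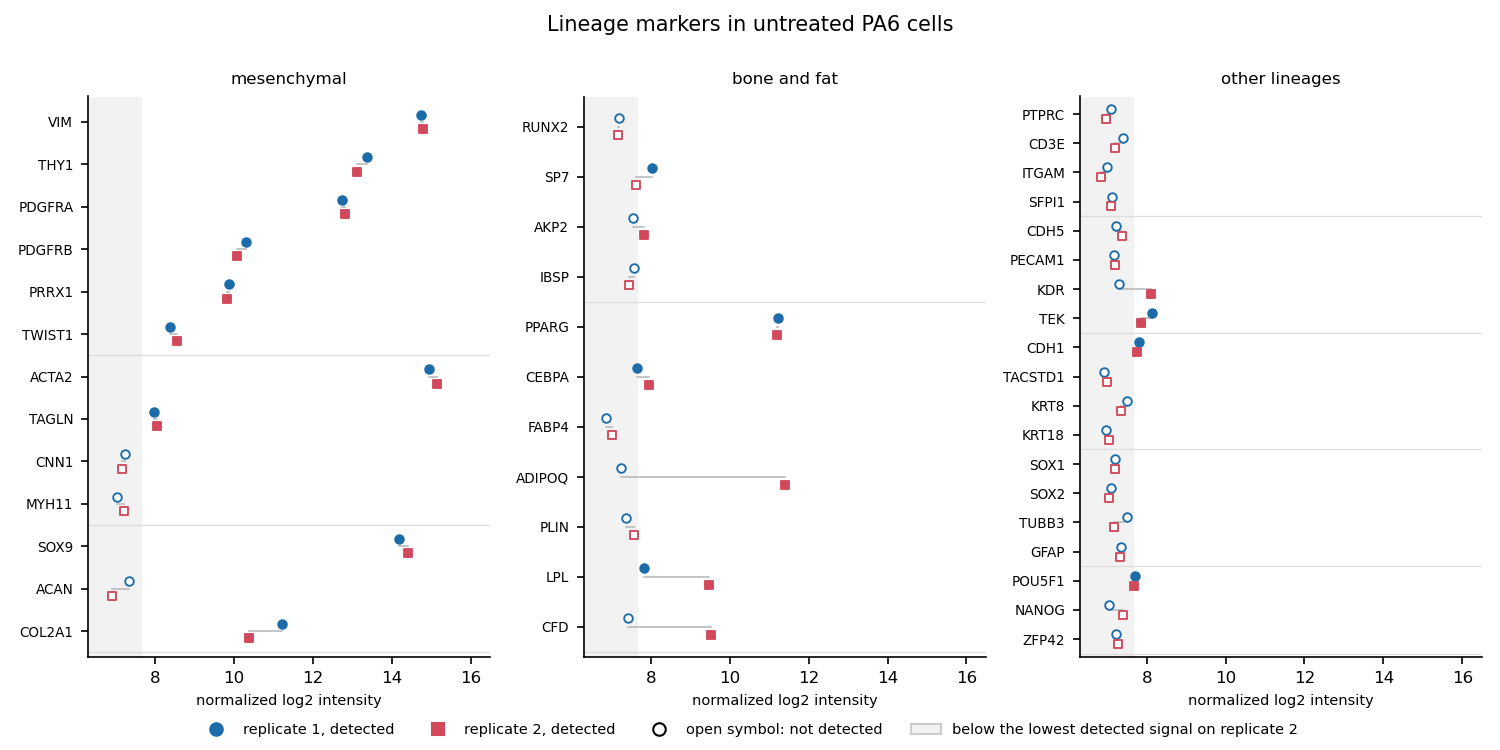
Normalized log2 intensity of lineage markers on replicate 1 (circles) and replicate 2 (squares), named as on the array (AKP2 is ALPL, PLIN is PLIN1, SFPI1 is SPI1 and TACSTD1 is EPCAM). Filled symbols are detected, open ones are not, and the shaded band lies below 7.64, the lowest detected signal on replicate 2. ADIPOQ lies in the band on replicate 1 and at 11.40 on replicate 2.

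Of 22 adipocyte genes 9 were detected on both arrays (40.9%), transcription factors and enzymes of lipid metabolism among them. PPARG, the master regulator of adipogenesis, gave 11.22 and 11.20, CEBPB gave 13.56 and 13.86 and CEBPD gave 11.29 and 11.21. CEBPA, which acts with PPARG, passed narrowly at 7.64 and 7.95. Of the lipid enzymes, the desaturase SCD1 gave 11.40 and 11.25, the triglyceride lipase PNPLA2 gave 10.57 and 11.04, and DGAT2, which makes triglyceride, gave 9.19 and 10.69. The lipid droplet protein PLIN2 (ADFP on the array) gave 9.52 and 10.01. FABP4, PLIN1, LIPE, CD36, SLC2A4 and RETN, genes of mature adipocytes, were detected on neither array. ADIPOQ (adiponectin), a product of mature adipocytes, was at 7.24 and undetected on replicate 1 and at 11.40 on replicate 2, and CFD (adipsin), CIDEC and LEP were likewise detected on replicate 2 only. LPL (lipoprotein lipase) was detected on both, at 7.82 and 9.47. Normalized over all 6 arrays, ADIPOQ was at 7.24, 7.30 and 7.29 on the replicate 1 arrays of -GFs, FGF2 and BMP4 and at 11.33, 10.77 and 11.16 on the replicate 2 arrays. The summed normalized intensity of the 22 adipocyte genes, of which CEBPB is the brightest, was 24801 on replicate 1 and 33250 on replicate 2. Counted with or without detection, 5 of the 22 genes read brighter on replicate 2 by more than 1 and 0 on replicate 1. Over all members, which are detected on both arrays, the shares were 0.737% and 2.28%. A sum follows the brightest genes of a list. A higher sum on replicate 2 was not particular to this list. The sum was 124079 and 165123 for the collagens, while it fell for the chemokines (74185 and 55207). In such bulk samples, a larger number of cells of a type and more RNA per cell cannot be told apart.

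Genes of other lineages were mostly undetected. Of 31 haematopoietic genes 7 were detected (22.6%), and the 6 defining markers, among them PTPRC, CD3E, ITGAM, EMR1 and SPI1 (SFPI1 on the array), were detected on neither array. CD14, an endotoxin co-receptor of monocytes, gave 11.04 and 10.93, and GATA2 gave 10.19 and 10.16. Of 21 endothelial genes 5 were detected (23.8%). Besides FLT1, SOX18 gave 8.07 and 8.42, and TEK (TIE2) gave 8.15 and 7.85 without passing the threshold of 0.01. CDH5 (VE-cadherin), PECAM1, VWF, TIE1 and CLDN5, which mark endothelium, were detected on neither array.

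Of 20 epithelial genes 4 were detected (20.0%), CDH1, CDH3, TRP63 and ELF3, at means near the detection limit, and none of the 4 passed the threshold of 0.01. EPCAM, KRT8 and KRT18 were detected on neither array. No neural or glial gene was detected on both arrays (0 of 25), and 2, SYP among them, were detected on replicate 1 alone. SOX1, SOX2, PAX6, NES, TUBB3, MAP2 and GFAP were detected on neither array.

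Of 20 pluripotency genes 4 were detected (20.0%). KLF2 (11.19 and 10.87) and KLF4 (8.75 and 8.31) are broadly used Krüppel-like factors, TBX3 gave 7.90 and 8.03, and POU5F1 gave 7.71 and 7.68 and was lost at 0.01. NANOG, SOX2, ZFP42 and ESRRB were detected on neither array. Of 19 mesendoderm and endoderm genes 3 were detected (15.8%), of which GATA6, a transcription factor of endoderm and mesenchyme, gave 11.72 and 12.25. FOXA1 and HNF4A stood near the detection limit, and T (brachyury), EOMES, MIXL1, GATA4, SOX17 and AFP were detected on neither array.

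Genes that encode position were examined because PA6 cells come from calvaria, the roof of the skull. Of 49 transcription factors of cranial mesenchyme and neural crest 21 were detected (42.9%), against 34.7% of all names. The share is close to that of the matched names (9171 of 21840) and is not read as an excess. TWIST2 gave 11.95 and 12.23, PRRX2 gave 11.66 and 12.10, and EN1 gave 10.95 and 10.96. The crest specifiers SOX10, FOXD3, PAX3, TFAP2A and TFAP2B were detected on neither array, as were ALX1, ALX4, MSX2, DLX5 and RUNX2. Of 16 trunk and limb position factors 2 were detected (12.5%), MEOX1 (8.53 and 9.15) and SHOX2 (7.87 and 7.91). With 16 genes this list is small, and its share is not set against that of the cranial list.

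HOX genes, whose combinations encode position along the body axis behind the midbrain, were detected in 10 of 39 cases (25.6%). In the HOXA cluster 5 of 11 were detected, HOXA2 (10.03 and 10.12), HOXA4 (8.66 and 8.75), HOXA5 (11.87 and 11.18), HOXA7 (10.02 and 10.47) and HOXA13 (8.30 and 8.66). In the HOXB cluster 3 of 10 were detected, HOXB2, HOXB3 and HOXB4. In the HOXC cluster 0 of 9 were detected, and in the HOXD cluster 2 of 9, HOXD8 (9.27 and 9.61) and HOXD9 (8.96 and 9.08). Apart from HOXA13, the detected genes of clusters A and B carry the anterior and middle numbers 2 to 7, and HOXB3 was lost at a detection p-value under 0.01.

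**Figure D5:**
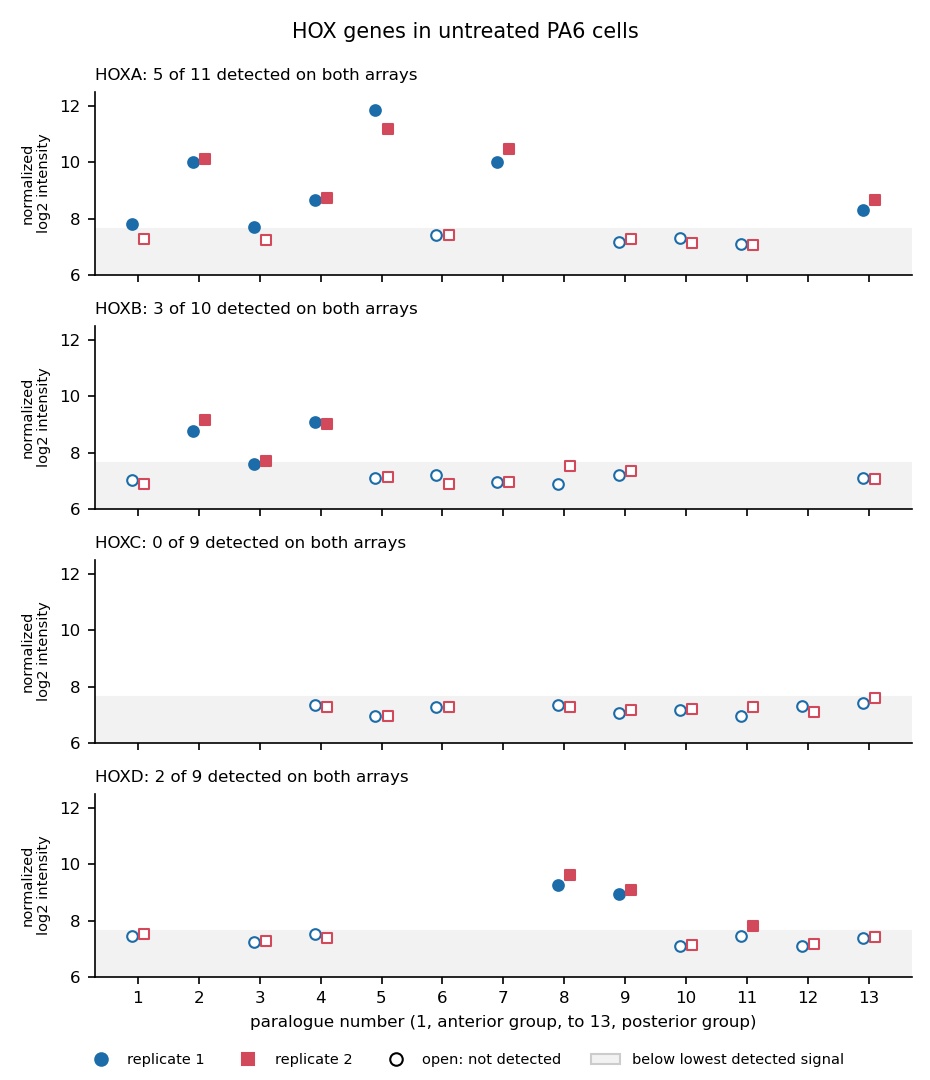
Normalized log2 intensity of the 39 HOX genes on the array by cluster and paralogue number, replicate 1 (circles) and replicate 2 (squares). Filled symbols are detected, open ones are not, and the shaded band lies below 7.64. HOXA5 lies at 11.87 and 11.18, and all 9 HOXC genes lie in the band.

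Most genes of the cell cycle were detected. Of 33 cell cycle genes 27 were detected (81.8%). The cyclin CCND1 gave 13.08 and 12.66, the mitotic kinase CDK1 (CDC2A on the array) gave 10.91 and 10.99, and TYMS, which makes thymidylate, gave 11.00 and 11.22. The inhibitor CDKN1A (p21) gave 13.45 and 13.11, and CDKN2A gave 10.00 and 9.97. CCNA2, CCNB2, CCNE2 and BUB1 were detected on neither array. MKI67 gave 9.54 and 7.68, near the detection limit on replicate 2, and was lost at a detection p-value under 0.01.

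Immediate early genes, which respond to serum and growth factors within minutes, were detected in 15 of 20 cases (75.0%) in these cells. DUSP1, an ERK and p38 phosphatase, gave 11.77 and 11.85, EGR1 gave 10.09 and 10.40 and JUNB gave 9.18 and 10.13. FOS, at 7.74 and 7.68, was detected near the limit and lost at 0.01, and ATF3, NR4A1 and IER2 were detected on neither array.

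Interferon and antigen presentation genes were detected in 24 of 30 cases (80.0%). IRF1 gave 13.13 and 13.23, B2M gave 14.56 and 14.37 and OASL2 gave 11.30 and 11.59. Class II genes and their activator (H2-AA, H2-AB1 and CIITA) were detected on neither array. Of the 24 detected genes 21 read brighter on replicate 2, 6 of them by more than 1, with a median difference of 0.56. Over all members 0.737% read brighter on replicate 2 by more than 1, and the median difference was 0.05. H2-D1, a class I heavy chain, gave 10.27 and 12.13, PSMB8, a subunit of the immunoproteasome, gave 9.26 and 10.94, and BST2 gave 9.94 and 11.28.

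The genes named in the study were detected in 16 of 33 cases (48.5%) in untreated PA6 cells. At a detection p-value under 0.01 there were 13, without TEK, SPP1 and WNT6. WNT6 was detected by 1 of its 3 probes, close to the limit. The paper reports, with data not shown, no WNT6 expression in PA6 cells cultured alone. ACTA2, CTNNB1 (13.15 and 12.94), TGFBR2, FGFR2, SNAI2 (12.31 and 11.59), VEGFA, SNAI1 (10.47 and 10.68) and TGFB1 were among the 16. CTGF, a matricellular target of TGFβ, gave 9.37 and 8.47. TBP, the reference gene of the real-time PCR, gave 9.58 and 9.32. CDH5, ICAM2, WNT4, WNT10A, SEMA7A, ACE and T were detected on neither array.

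Differences between the arrays were small for most members and large for some. The median absolute difference was 0.24, and 10392 of the 10715 genes (97.0%) lay within 1 on the log2 scale. By more than 1, 244 genes (2.28%) read brighter on replicate 1 and 79 (0.737%) on replicate 2. Without normalization between arrays the numbers were 618 and 29, so that replicate 2 held 4.48% of such genes in place of 24.5%, and with background correction (neqc) they were 547 and 249 (31.3%). The median difference, replicate 2 minus replicate 1, was 0.05 after normalization and -0.19 without it.

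The largest differences toward replicate 2 were those of KNG1 (8.57 and 11.07), a kininogen, RARRES2 (10.18 and 12.17), the adipokine chemerin, and RN18S (12.88 and 14.76), which is ribosomal RNA. KNG2, H2-D1, MRAP, GDPD2, LOC100045864, SRPX2 and PSMB8 followed. MRAP, an accessory protein of melanocortin receptors found in adipocytes, gave 7.62 and 9.40. The largest toward replicate 1 were those of DDX3Y (12.05 and 9.90), a Y-linked helicase of the male mouse genome, OGN and MKI67. SDPR, SAMD9L, SMEK2, ANKRD12, SH3BGRL, FGF7 and 2810008M24RIK followed. KNG1, DDX3Y and MKI67 were each detected on both arrays by 1 of 3 probes, and MKI67 lay near the detection limit on replicate 2. In the same direction on the treated arrays as well, KNG1 was at 8.57 and 10.97 with FGF2 and at 8.76 and 11.15 with BMP4, normalized over all 6 arrays. RN18S was at 12.97 and 13.28 with FGF2 and at 13.25 and 14.26 with BMP4. The part of culture, RNA or array in these differences was not tested.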

How the data were processed

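The authors deposited, per the labels, array intensities of biotin-labelled cRNA from total RNA, as the mean intensity of the beads of each of 45281 probes on a linear scale before normalization, and with it the p-value of detection above negative control beads (other values in the table, deposited as numbers from 0 to 1). According to the methods, scans were processed with Illumina's software and values were taken from GenomeStudio (2011.01 in the submitters' processing notes). Not used were 9 unnamed columns with entries for 2045 probes, and 6 stray lines that close the table. Groups and replicates come from the labels.

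Following the methods, a cubic spline normalization was written for this work (Python 3.11.15, numpy 2.4.6, scipy 1.17.1), mapping 452 quantiles of each -GFs array onto the mean of both, and values were converted to log2. It was checked on simulated data. A gene was detected when a probe had a p-value under 0.05 on both arrays, and its brightest detected probe represents it; of 4956 members with several probes, 3194 had a probe that was not detected on both. No test was made. The members and gene lists were chosen with earlier results of these data known. The genes named are the 30 brightest, list members, the 10 with the largest difference between the arrays in each direction and those named in the study, and others are said to be chosen after their values were seen. A gene may be in several lists. Of 30854 names, 21840 matched a RefSeq symbol (16223) or synonym (5617), and synonym matches, clone names included, could not be checked against probe sequences. Names are those on the array, or the current symbol where a list member has an older or clone name there. Alternatives were a detection p-value under 0.01, all 6 arrays, other normalizations including neqc (limma 3.58.1, R 4.3.3), probe choice, and each array alone. Depth has no counterpart on arrays, and 2 arrays limit the precision.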

Additional observations from a re-analysis of the deposited data

How the results depend on the processing

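The number of detected genes was 10715 and ranged from 9219 (detection p-value under 0.01) to 12137 (replicate 1 alone), with 9707 detected on all 6 arrays. Of the 205 counts over gene lists under the alternatives, 193 stayed within 1.5 times the count given. Of the other 12, with a p-value under 0.01 there were 2 WNT ligands in place of 4, 4 haematopoietic genes in place of 7, 3 endothelial in place of 5, 0 epithelial in place of 4, 1 mesendoderm and endoderm gene in place of 3 and 1 trunk and limb factor in place of 2. On all 6 arrays there were 3 haematopoietic niche factors in place of 5, 2 WNT ligands, 2 osteoblast genes in place of 4, 2 epithelial genes and 1 trunk and limb factor. Leaving out 1 array, the number of neural and glial genes ranged from 0 to 2. In all, 64 list members were lost at 0.01. Of the genes differing by more than 1 between the arrays, replicate 2 was brighter for 79 and replicate 1 for 244, against 29 and 618 without normalization and 249 and 547 with neqc. The cause was not tested. Of the 30 brightest genes, 23 to 30 were shared under every alternative, with 23 on replicate 1 alone. No paired analysis was possible because only the -GFs group was used and the values come from no test. Signal near background limits the low members and signal near the top of the scale limits the order of the brightest.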

Other observations

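Chosen after their values were seen and in no gene list, several genes that encode secreted or surface proteins were bright in the untreated cells. HP (haptoglobin), an acute phase protein, gave 14.77 and 15.18, and C3, the central component of complement, gave 14.44 and 14.71. MGP (matrix Gla protein), an inhibitor of calcification, gave 14.79 and 14.57. CD248 (endosialin), a surface protein of fibroblasts and pericytes, gave 14.39 and 14.12. AOC3, an amine oxidase found on vascular smooth muscle and adipocytes, gave 14.24 and 14.65. ADH1, an alcohol dehydrogenase that also acts on retinol, gave 14.08 and 15.14, a difference of 1.06, and INMT, a methyltransferase, gave 14.39 and 15.28. A further Y-linked gene, EIF2S3Y, gave 12.08 and 10.51, in the direction of DDX3Y, and the X inactivation transcript XIST was detected on neither array (7.57 and 7.50).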
